A study of Homo sapiens with 2 samples.

Results

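The transcripts described here are the noncoding host RNAs of small RNAs, measured in the head and neck cancer line OECM1 with and without added let-7i. They are the 74 genes whose platform symbol begins with MIR and ends with HG, begins with SNHG, or is GAS5. These symbols stand on 135 of the 54675 probe sets of the array, either alone or beside other symbols. The rule uses names only and no measured value, but it was chosen with earlier results of these data known. Of the 74 genes, 25 are snoRNA hosts (the SNHG genes and GAS5) and 49 are microRNA hosts. One culture was stably transfected with pmCherry-let7i, a plasmid for the microRNA let-7i. The control culture carried the pmR-mCherry empty vector, named for a red fluorescent protein. Both were grown in RPMI medium with 10% fetal bovine serum. Each group had 1 array, and whether the cells were a clone or a pool is not given in the sources used here. No value below therefore has a replicate check, an SD between cultures or a p-value.

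A host transcript is a long RNA that carries small RNAs inside it. snoRNAs lie in the introns of their hosts, are set free when the host is spliced, and guide chemical modification of ribosomal and spliceosomal RNA. Many of the spliced snoRNA host RNAs begin with a terminal oligopyrimidine tract (TOP), as messenger RNAs of the translation machinery do, and many are removed by nonsense-mediated decay. MicroRNA hosts are primary transcripts from which the nuclear enzyme Drosha cuts hairpins, and Dicer then makes the mature microRNAs. let-7 microRNAs recognise their targets through the seed, bases 2 to 8 counted from the 5′ end. The array reports the host RNA and not the snoRNA or mature microRNA, and no probe set carried the symbol of the let-7i gene or of its own host, so the arrays offer no check of let-7i itself.

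The sequences of let-7i and of the microRNAs with its seed that lie in these hosts are shown first, because they tie these hosts to the microRNA that was added. Mature sequences are those of RefSeq on GRCh38.p14, written 5′ to 3′, with the seed in capitals, and let-7a is placed at its copy in MIRLET7BHG.
let-7i-5p, chr12:62603691-62603712, plus strand: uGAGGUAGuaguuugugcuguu
let-7a-5p, chr22:46112752-46112773, plus strand: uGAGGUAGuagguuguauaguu
let-7b-5p, chr22:46113691-46113712, plus strand: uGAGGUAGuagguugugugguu
let-7c-5p, chr21:16539838-16539859, plus strand: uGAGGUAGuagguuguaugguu
miR-4458, chr5:8460933-8460951, plus strand: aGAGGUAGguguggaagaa
miR-4500, chr13:87618671-87618687, minus strand: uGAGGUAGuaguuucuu
All 6 share the seed GAGGUAG. let-7b differs from let-7i at 3 of 22 positions, and let-7a and let-7c differ from it at 4 each. Of the 49 microRNA hosts, 5 carry such a microRNA by RefSeq position or by the platform annotation. MIRLET7BHG holds let-7a and let-7b, MIR100HG holds another copy of let-7a, and MIR99AHG holds let-7c. MIR4458HG and MIR4500HG hold the microRNAs they are named for.

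A second set is shown because its hosts differed in opposite directions between the arrays.
miR-424-5p, chrX:134546680-134546701, minus strand: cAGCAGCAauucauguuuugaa
miR-503-5p, chrX:134546371-134546393, minus strand: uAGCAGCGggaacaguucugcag
miR-195-5p, chr17:7017667-7017687, minus strand: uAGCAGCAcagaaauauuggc
miR-497-5p, chr17:7017979-7017999, minus strand: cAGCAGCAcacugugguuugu
The platform annotation pairs miR-424 and miR-503 with MIR503HG, and miR-195 and miR-497 lie in MIR497HG. miR-424, miR-195 and miR-497 share the seed AGCAGCA, and miR-503 has AGCAGCG.

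A further set holds the best known microRNAs of the other hosts that are described at length below.
miR-155-5p, chr21:25573983-25574006, plus strand: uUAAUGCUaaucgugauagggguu
miR-181a-5p, chr9:124692480-124692502, plus strand: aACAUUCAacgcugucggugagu
miR-17-5p, chr13:91350618-91350640, plus strand: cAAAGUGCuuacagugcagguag
miR-20a-5p, chr13:91351072-91351094, plus strand: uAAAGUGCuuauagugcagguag
miR-22-3p, chr17:1713914-1713935, minus strand: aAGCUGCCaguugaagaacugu
miR-210-3p, chr11:568112-568133, minus strand: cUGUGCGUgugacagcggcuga
miR-205-5p, chr1:209432166-209432187, plus strand: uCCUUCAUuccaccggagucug
miR-200c-3p, chr12:6963742-6963764, plus strand: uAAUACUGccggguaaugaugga
miR-17 and miR-20a, both from MIR17HG, share the seed AAAGUGC. The other seeds in this set are each different.

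Signals are MAS5 intensities, which have no detection calls here, so a floor was set at the median signal of each array, 79.5 for let-7i and 88.0 for the empty vector. Log2 ratios are let-7i over empty vector, centred on the median of the probe sets above both floors (a shift of -0.022). A signal below the floor was raised to it, and the ratio is then a bound. The SD of the log2 ratio of a single probe set, from 5873 genes with at least 2 measured probe sets, was 0.34 where signals were at most 404, 0.25 up to 783, 0.21 up to 1669 and 0.15 above that. It covers probe noise only. Of the 8 squamous epithelial markers checked, CDH1, EPCAM and SFN were above the floor, the basal keratins KRT5 and KRT14 were below it on both arrays, and KRT6A, KRT17 and TP63 had no probe set of their own. The 5 with a probe set summed to 27989 with let-7i and 33677 with the empty vector. EPCAM was 1.61-fold lower with let-7i. Fibroblast markers summed to 856 with let-7i and 616 with the empty vector, with 2 of 6 above the floor (COL1A1 and DCN, the second 2.00-fold higher) and COL1A2 and COL3A1 below it. Leukocyte markers summed to 210 and 251, with 1 of 4 above the floor (CD3E) and PTPRC below it, and endothelial markers to 441 and 384, with 1 of 3 above (PECAM1) and VWF and CDH5 below. The part of these shifts in the host differences was not tested, and fewer cells of a type and less RNA per cell cannot be told apart here.

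No member probe set reached 2-fold at the main floor, but some ratios are bounds and some passed 2-fold under other settings, as given below. Of the 135 member probe sets, 82 were above the floor on at least 1 array, and 0 of them passed 2-fold in either direction. Among all 29041 probe sets above the floor, 1.0% were higher by 2-fold or more with let-7i and 1.27% lower, so the absence of such calls among 82 probe sets is near the background. At 1.5-fold, 7 member probe sets (8.54%) were higher, against 4.43% of all probe sets, and 9 (11.0%) were lower, against 6.69%. The 7 higher ones belong to MIR155HG, MIR210HG, MIR503HG (3 probe sets) and SNHG33 (2 probe sets), so they stand for 4 genes. The 9 lower ones include MIR17HG, MIR181A2HG, MIR3936HG, MIR3945HG and MIR497HG, the last as a bound. The others are shared probe sets of MIR3147HG and SNHG4, and dimmer probe sets of MIR1915HG and MIR4458HG. The brightest probe sets of MIR1915HG and MIR4458HG were higher, at log2 ratios of 0.16 and 0.23. The larger differences lay mostly in microRNA hosts, with 5 of 41 probe sets higher (12.2%) and 8 of 41 lower (19.5%) at 1.5-fold. Among snoRNA hosts 2 of 41 were higher (4.88%) and 1 of 41 lower (2.44%), the lower one being shared with MATR3. Dim genes vary more on this array: of all 5944 genes measured on both arrays with a mean signal under 1000, 5.96% were higher by 1.5-fold or more and 7.15% lower. All 22 microRNA hosts measured on both arrays lay in that range, with 3 higher (13.6%) and 4 lower (18.2%) at 1.5-fold.

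The snoRNA hosts were mostly slightly higher with let-7i. A gene was represented by its brightest probe set, and 22 of the 25 snoRNA hosts were measured on both arrays. Of these, 15 (68.2%) were higher and 7 (31.8%) lower, with a median log2 ratio of 0.13. All 12397 measured genes together had 53.1% higher and 45.7% lower, with a median of 0.017. The excess lay among the brighter hosts: of the 13 with a mean signal of at least 1000, 11 were higher, with a median of 0.21, against 61.0% of all genes in that range and a median of 0.050. The 9 dimmer hosts split into 4 higher and 5 lower. Lowess centring gave 14 higher and 8 lower snoRNA hosts, and quantile normalization gave 13 and 9. Under both, SNHG1 and SNHG29, which are among the 11 higher bright hosts, turned lower. The split of the bright hosts therefore depends on the scaling.

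**Figure D1:**
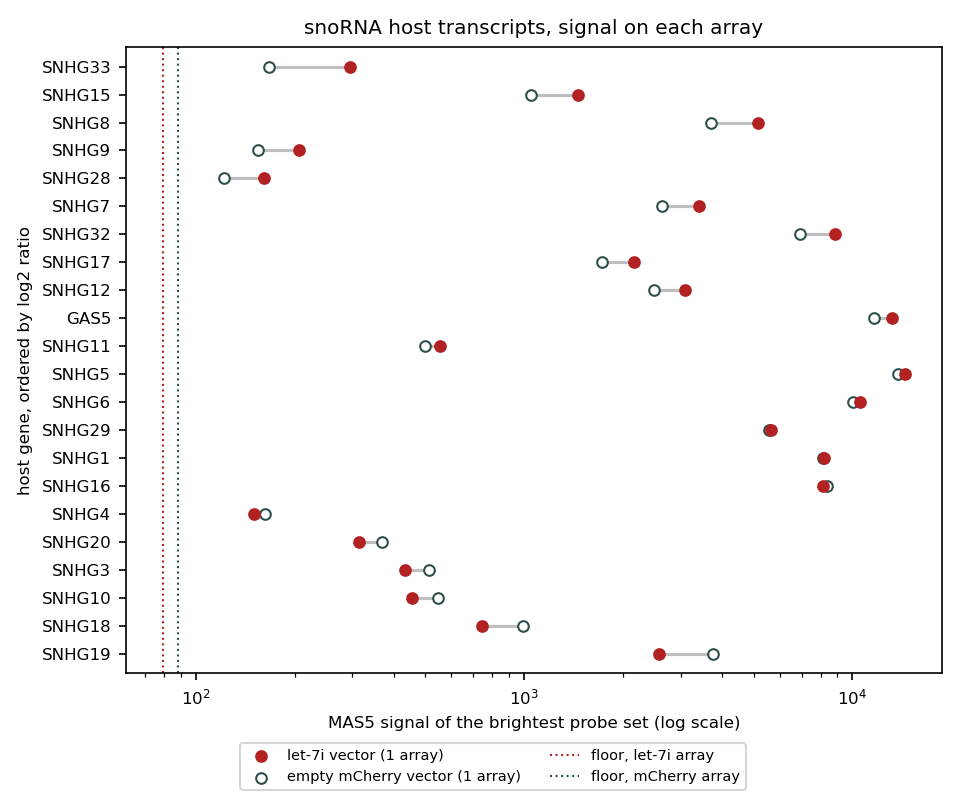
MAS5 signals (log axis) of the 22 snoRNA hosts above the floor, with 1 let-7i array (filled) and 1 empty vector array (open), ordered from the highest log2 ratio at the top. SNHG33, SNHG15 and SNHG8 lead the higher hosts, GAS5, SNHG5, SNHG6, SNHG1 and SNHG16 have nearly overlapping points, and SNHG19 is the lowest.

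SNHG33 had the largest ratio of the snoRNA hosts. Its brighter probe set had a signal of 294 with let-7i and 167 with the empty vector, a 1.79-fold higher level, and its other probe set 242 and 159 (1.54-fold). Both point the same way, but the signals are dim, and under a higher floor (65th percentile) its log2 ratio was a bound of 0.36.

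The next 6 bright hosts differed by between 1.26-fold and 1.41-fold. SNHG15, which carries SNORA9, had signals of 1463 with let-7i and 1052 with the empty vector, 1.41-fold higher. SNHG8, which carries SNORA24, had 5150 and 3713, also 1.41-fold higher. Each of them has a single probe set, and each log2 ratio (0.50 and 0.49) is more than 2 times the probe noise at its signal (0.21 and 0.15).

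SNHG7, the host of SNORA17A and SNORA17B, had 3417 with let-7i and 2627 with the empty vector, 1.32-fold higher, and 496 against 396 in its dimmer probe set. SNHG32, known before as C6orf48, had 8832 and 6909, 1.30-fold higher, in a single probe set that can match several transcripts. SNHG17, a host of SNORA71 snoRNAs, had 2160 and 1728, 1.27-fold higher, and its other measured probe set gave 2056 and 1624. The pairs of probe sets of SNHG7 and of SNHG17 differ from each other by under 0.1 in log2 ratio.

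SNHG12, which carries SNORA16A, SNORA44 and SNORA61, had signals of 3083 with let-7i and 2482 with the empty vector, 1.26-fold higher. Its other probe sets gave 1671 against 1289 (1.32-fold) and 1946 against 1870 (1.06-fold). The last of these stood for the gene when probe sets that can match several transcripts were left out, and its log2 ratio was then 0.096.

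GAS5 carries SNORD44, SNORD47 and SNORD74 among others, and its spliced RNA is known to accumulate in growth-arrested cells. It was slightly higher with let-7i in its bright probe sets. Its brightest probe set had 13221 with let-7i and 11629 with the empty vector, 1.15-fold higher. The other bright probe sets had 12661 and 11472, 9974 and 9233, and 3818 and 3165, at log2 ratios of 0.16, 0.13 and 0.29. The dimmest was slightly lower, with 307 against 331.

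The other bright hosts barely differed. SNHG5, the host of SNORD50A and SNORD50B, had 14448 with let-7i and 13723 with the empty vector, a log2 ratio of 0.097. SNHG6, with SNORD87, had 10525 and 10047, a log2 ratio of 0.089. SNHG1, whose introns carry SNORD22 and SNORD25 to SNORD31, had 8171 and 8157. All 3 log2 ratios are smaller than the probe noise of 0.15.

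SNHG16, with SNORD1A and SNORD1C, had 8160 with let-7i and 8367 with the empty vector, and its second probe set 7381 and 7220. SNHG29, with SNORD49A, SNORD49B and SNORD65, had 5663 and 5574, and 145 and 121 in a dim probe set. The directions of SNHG1 and SNHG29 turned under lowess centring and quantile normalization, and SNHG16 had probe sets on either side of 0.

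SNHG19 was the lowest of the snoRNA hosts, with 2583 for let-7i and 3759 for the empty vector, a 1.43-fold lower level. Its log2 ratio of -0.52 is more than 3 times the probe noise at its signal, but its only probe set can match several transcripts. SNHG18 had 744 and 993, 1.31-fold lower. SNHG10, the host of SCARNA13, had 455 and 547 in its brighter probe set, 1.18-fold lower, but 176 and 149 in its dimmer one, so its direction is not settled.

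SNHG3, which carries SNORA73A, had 433 with let-7i and 513 with the empty vector, a log2 ratio of -0.22. SNHG20, the host of SCARNA16, had 315 and 368, a log2 ratio of -0.20. SNHG4 had 150 and 163 in the probe set that names it alone, with a sign that turned under lowess centring. These differences are within the probe noise of their signal range.

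SNHG9, with SNORA78, had 207 with let-7i and 155 with the empty vector (1.35-fold), and SNHG28 had 161 and 122 (1.34-fold). SNHG11, with SNORA60 and SNORA71E, had 554 and 500 (1.13-fold). SNHG9 and SNHG28 lie in the dimmest range, where their log2 ratios of 0.44 and 0.43 are little more than 1 SD of the probe noise. SNHG22, SNHG24 and SNHG27 had no signal above the floor (at most 38.3 for let-7i and 36.8 for the empty vector) and get no ratio.

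A further 9 probe sets carry the symbols of both SNHG4 and MATR3, a nuclear matrix protein gene that shares the locus, and their signal cannot be given to either. Of these, 7 were above the floor, with log2 ratios from -0.66 (96.0 with let-7i and 154 with the empty vector) to 0.25 (13508 and 11496). Those with signals above 1000 were on both sides of 0.

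The starts of the snoRNA hosts are shown because a TOP tract is a known shared feature of this class. The letters CTTT, searched on the transcribed strand within 10 bases of either side of the RefSeq start, were present in 9 of the 19 measured snoRNA hosts with a promoter entry (47.4%). The share was 8.83% of 27305 promoters in all, and 4 of 23 measured microRNA hosts (17.4%). On the other strand (AAAG) it was 0 of 19 snoRNA hosts, against 6.49% of all promoters. CTTT does not overlap another searched motif. The 7 of these 9 hosts with a signal of at least 1000 on both arrays are shown from 20 bases before to 20 bases after the start, transcribed strand, 5′ to 3′, GRCh38.p14, with CTTT in capitals.
SNHG8, chr4:118278742-118278781, plus strand: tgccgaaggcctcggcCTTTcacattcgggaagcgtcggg
SNHG32, chr6:31834896-31834935, plus strand: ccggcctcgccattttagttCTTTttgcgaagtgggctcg
SNHG12, chr1:28581854-28581893, minus strand: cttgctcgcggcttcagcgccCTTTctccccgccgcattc
SNHG5, chr6:85678714-85678753, minus strand: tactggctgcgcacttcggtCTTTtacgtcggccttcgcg
SNHG29, chr17:16438967-16439006, plus strand: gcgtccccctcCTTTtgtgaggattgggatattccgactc
SNHG16, chr17:76557744-76557783, plus strand: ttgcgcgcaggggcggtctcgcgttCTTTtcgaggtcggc
SNHG19, chr16:2155339-2155378, minus strand: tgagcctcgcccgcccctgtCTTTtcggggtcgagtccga
The log2 ratios of these 7 hosts run from 0.49 (SNHG8) to -0.52 (SNHG19). The dimmer SNHG33 and SNHG4 also hold the letters. Whether the letters go with the ratios was not tested. In SNHG8, SNHG29 and SNHG33 the letters lie wholly before the annotated start, and GAS5 and SNHG1 are among the hosts without a match. A match is a description of the letters near the annotated start and not a mapped TOP site. For SNHG12 the start used lies inside its RefSeq span, whose 5′ end is at chr1:28582983.

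The microRNA hosts spread to both sides. Of the 49, MIR3147HG has only a shared probe set, and of the other 48 genes, 22 were measured on both arrays, 2 with let-7i only, 4 with the empty vector only and 20 on neither. The 28 measured on at least 1 array split into 12 higher and 15 lower, and MIR4435-2HG has no direction. The median log2 ratio was -0.073, and 0.035 over the 22 measured on both arrays. Lowess centring and quantile normalization turned the sign of the median and gave 15 higher and 13 lower each, so neither direction is settled for the group.

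**Figure D2:**
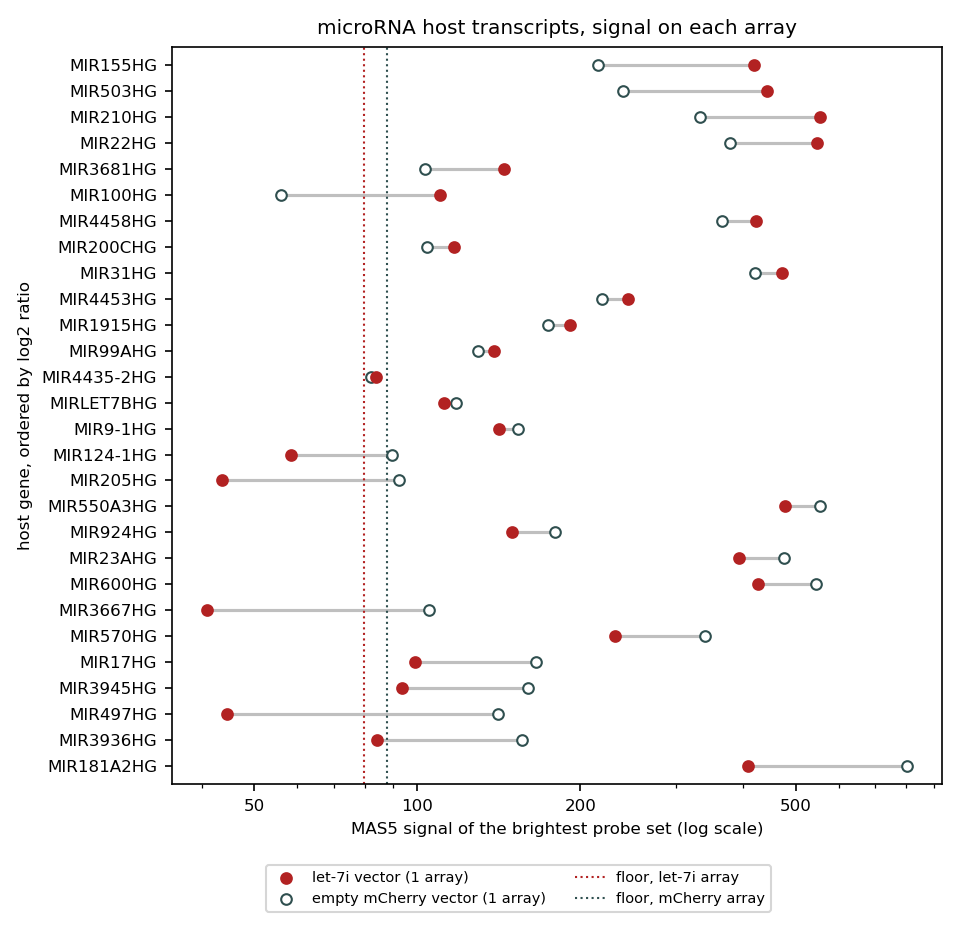
MAS5 signals (log axis) of the 28 microRNA hosts above the floor on at least 1 array, with 1 let-7i array (filled) and 1 empty vector array (open), ordered from the highest log2 ratio or bound at the top. Among hosts measured on both arrays, MIR155HG and MIR503HG have the points farthest apart of the higher ones and MIR181A2HG of the lower ones. MIR100HG, MIR205HG, MIR3667HG, MIR124-1HG, MIR497HG and MIR4435-2HG have 1 point left of its floor.

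MIR155HG (BIC), the host of miR-155, a microRNA of activated immune and inflamed cells, had the highest ratio. Its single probe set had a signal of 418 with let-7i and 216 with the empty vector, a 1.97-fold higher level. The log2 ratio of 0.98 is more than 2 times the probe noise at this signal (0.34), and it passed 2-fold after lowess centring (2.04-fold), after quantile normalization (2.03-fold) and under a lower floor, the 25th percentile of the array (2.00-fold).

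MIR503HG was higher in all 3 of its probe sets. They had signals of 442, 377 and 197 with let-7i, against 240, 218 and 108 with the empty vector. The folds were 1.87, 1.76 and 1.85, and the log2 ratios (0.91, 0.81 and 0.89) differ by less than the probe noise. MIR503HG is an X-linked transcript whose RefSeq span holds miR-503, with miR-424 just outside it.

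MIR497HG, the host of miR-195 and miR-497, went the other way. Its probe set had a signal of 44.5 with let-7i, below the floor, and 141 with the empty vector, at least 1.75-fold lower. Under the lower floor both signals counted as measured and the level was 3.06-fold lower. The hosts of these 2 microRNA clusters, 3 of whose 4 microRNAs share the seed AGCAGCA, thus differed in opposite directions, MIR503HG in 3 probe sets and MIR497HG in 1 dim one.

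MIR181A2HG, the host of miR-181a on chromosome 9, had 408 with let-7i and 802 with the empty vector, a 1.94-fold lower level. This was the lowest ratio among hosts measured on both arrays, at -0.95 against a probe noise of 0.25. It has 1 probe set.

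MIR17HG, the host of the miR-17 to miR-92a cluster, which promotes growth and is a target of MYC, had 98.8 with let-7i and 166 with the empty vector. The level was 1.65-fold lower, at signals near the floor, and its other probe set was below the floor on both arrays. MIR22HG, the host of miR-22, a stress-responsive transcript, had 548 and 378, 1.47-fold higher in its single probe set.

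MIR210HG, the host of miR-210, which is induced by hypoxia, had 554 with let-7i and 332 with the empty vector in its brighter probe set, 1.69-fold higher. The dimmer probe set had 152 and 147, a log2 ratio of 0.076. The mean over both, centred anew, was 0.42, so its size depends on the probe set.

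The microRNA hosts of epithelial cells were dim. MIR205HG, the host of miR-205, a microRNA of stratified epithelia, had 43.6 with let-7i and 92.4 with the empty vector. The let-7i signal was below the floor, so the level was at least 1.14-fold lower, and 2.05-fold lower under the lower floor. MIR200CHG, the host of miR-200c and miR-141, which repress ZEB1 and ZEB2, had 117 and 104, a log2 ratio of 0.19 within the probe noise, also in a single probe set that can match several transcripts.

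MIR31HG, the host of miR-31, a microRNA often abundant in oral carcinoma, had 472 with let-7i and 421 with the empty vector, a log2 ratio of 0.19. MIR23AHG, the host of the miR-23a, miR-27a and miR-24 cluster, had 392 and 475 in its brighter probe set and 305 and 373 in the other. Its log2 ratios of -0.25 and -0.27 nearly coincide, and the first is about as large as the probe noise.

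Among the hosts of let-7 seed microRNAs, MIRLET7BHG and MIR99AHG differed by less than the probe noise, MIR100HG has a bound, MIR4458HG has probe sets of opposite sign and MIR4500HG was not above the floor. MIRLET7BHG had a signal of 112 with let-7i and 118 with the empty vector, a log2 ratio of -0.051 that turned positive after lowess centring and quantile normalization. MIR99AHG had 138 and 129, a log2 ratio of 0.12. The probe noise at these signals is 0.34.

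MIR100HG, which also holds miR-100 and miR-125b, had 110 with let-7i and 55.9 with the empty vector. The empty vector signal was below the floor, so the level was at least 1.27-fold higher, and 2.03-fold higher under the lower floor. Its other probe set was not above either floor.

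MIR4458HG had 421 with let-7i and 365 with the empty vector in its brighter probe set, 1.17-fold higher, and 95.0 and 153 in its dimmer one, 1.59-fold lower. The mean over both, centred anew, was -0.22, so no direction is given for it. MIR4500HG had only 34.9 and 58.1, below either floor.

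Several hosts of less studied microRNAs were lower at dim signals. MIR3936HG had 84.1 with let-7i and 156 with the empty vector (1.82-fold lower), and MIR3945HG had 93.8 and 160 (1.68-fold lower). MIR570HG had 231 and 340, 1.45-fold lower, and the probe set it shares with the SDHAP1 and SDHAP2 pseudogenes had 699 and 727. MIR600HG had 426 and 545, 1.26-fold lower, and 116 and 131 in its other probe set. The let-7i signals of MIR3936HG and MIR3945HG lie just above the floor of 79.5.

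MIR3667HG had 40.8 with let-7i and 105 with the empty vector, at least 1.30-fold lower, and 2.49-fold lower under the lower floor. MIR124-1HG, a host of the neuronal microRNA miR-124, had 58.3 and 89.7, at least 1.11-fold lower. Both let-7i signals were below the floor. MIR924HG had 149 and 180, a log2 ratio of -0.24, and MIR9-1HG, a host of miR-9, had 141 and 153, a log2 ratio of -0.094, and 77.1 and 101 in a second probe set. The differences of MIR924HG and of the brighter MIR9-1HG probe set are within the probe noise, and the sign of MIR9-1HG turned under lowess centring and quantile normalization.

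MIR3681HG was higher, with 145 for let-7i and 103 for the empty vector (1.42-fold), at signals near the floor. MIR4453HG had 245 and 220, a log2 ratio of 0.18. MIR550A3HG had 477 and 555 in its brighter probe set and 135 and 118 in the other, with opposite signs. MIR1915HG had 191 and 174 in its brightest probe set but 149 against 211 and 121 against 195 in the others. Its mean over probe sets, centred anew, was -0.33, the opposite sign to its brightest probe set.

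MIR4435-2HG had 83.7 with let-7i and 81.9 with the empty vector in its own probe set, at the floor. A bright probe set that also carries CYTOR, a paralogous long noncoding RNA, had 5240 and 4256, 1.25-fold higher, and cannot be given to either gene. The shared probe set of MIR3147HG had 101 and 158, 1.55-fold lower. Another 20 microRNA hosts were not above the floor on either array, their brightest probe sets reading 1.67 to 74.1 for let-7i and 2.23 to 75.4 for the empty vector. They include the hosts of the neuronal microRNAs miR-9 (MIR9-2HG, MIR9-3HG), miR-124 (MIR124-2HG) and miR-137 (MIR137HG), of the muscle microRNAs miR-1 and miR-133a (MIR1-1HG, MIR133A1HG), of miR-34b (MIR34BHG) and of miR-7 (MIR7-3HG). The others are MIR2052HG, MIR3663HG, MIR3976HG, MIR4290HG, MIR4300HG, MIR4307HG, MIR4500HG, MIR4697HG, MIR548XHG, MIR646HG, MIR663AHG and MIR670HG.

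Of 8 snoRNA hosts with at least 2 probe sets measured on both arrays, all probe sets had the same sign in 5 (62.5%), and in 4 of 7 microRNA hosts (57.1%), against 50.7% of 5873 genes. A difference of more than 2 times the probe noise was seen in 8 of 22 snoRNA hosts and in 8 of 22 microRNA hosts measured on both arrays (36.4% each), against 14.3% of all 11250 genes so measured. The 8 snoRNA hosts were SNHG7, SNHG8, SNHG12, SNHG15, SNHG17, SNHG32 and SNHG33, which were higher, and SNHG19, which was lower. The 8 microRNA hosts were MIR155HG, MIR503HG, MIR210HG and MIR22HG, which were higher, and MIR17HG, MIR181A2HG, MIR3936HG and MIR3945HG, which were lower. These shares are not compared at like signal. The median let-7i signal was 238 for the microRNA hosts, 2371 for the snoRNA hosts and 921 for all genes. Probe noise is pooled within each signal range, and MIR17HG, MIR3936HG and MIR3945HG lie at the dim end of the lowest range. How much separate cultures of the same cells differ was not measured.

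**Figure D3:**
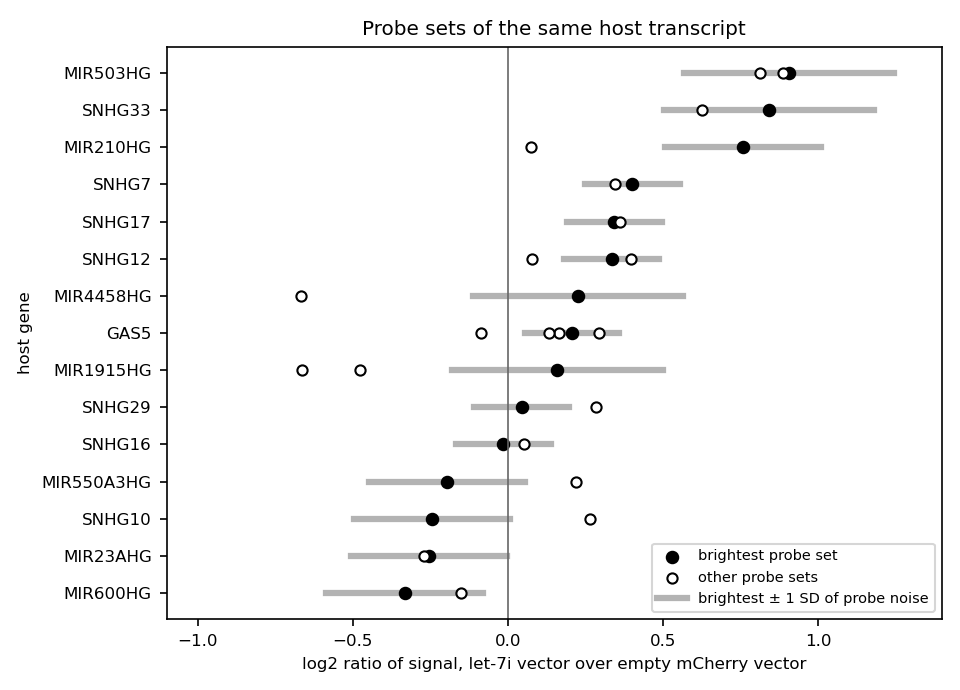
Log2 ratios (let-7i vector over empty mCherry vector) of every probe set measured on both arrays, for the 15 hosts with at least 2 of them. Filled points are the brightest probe set with a grey bar of 1 SD of probe noise to each side, and open points are the others. The 3 probe sets of MIR503HG lie together near 0.9, whereas those of MIR4458HG and MIR1915HG lie on both sides of 0.

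The related genes of the same pathways are given for comparison. snoRNP proteins, which form the modifying complexes with snoRNAs, and their assembly factors were nearly all slightly higher with let-7i. Of 18 measured, 17 were higher and only ZNHIT6 lower, at a median log2 ratio of 0.17, against 0.017 for all genes. Most of the 18 had signals above 1000, and 61.0% of all genes with a mean signal of at least 1000 were higher, with a median of 0.050. NAF1, an assembly factor of H/ACA snoRNPs, had signals of 985 with let-7i and 703 with the empty vector, 1.42-fold higher. GAR1, an H/ACA core protein, had 1895 and 1436, 1.34-fold higher. None reached 1.5-fold, and the split was 14 to 4 under lowess centring and 15 to 3 under quantile normalization. Of this list 2 members, and of the next 9, also stand in another list.

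Protein-coding genes that carry snoRNAs in their introns were mostly slightly higher in the main setting, but close to even under other scalings. Among 37 measured, the split was 29 higher to 8 lower (median 0.068), but 18 were higher and 19 lower under lowess centring and under quantile normalization alike. PRRC2A had the largest ratio, with 2359 with let-7i and 1789 with the empty vector (1.34-fold higher), and RCC1, an exchange factor for the GTPase RAN and a neighbour of SNHG3, had 3987 and 5374 (1.33-fold lower). TOP messenger RNAs had a median of 0.061, with 19 higher and 3 lower, and 9 higher and 13 lower under each of the same alternatives. VIM, the intermediate filament protein vimentin, stood apart from the other TOP messenger RNAs at 22705 and 11965, 1.93-fold higher, and RPL5 had 40949 and 33677 (1.23-fold). So for bright genes a direction this small depends on the scaling.

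Nonsense-mediated decay factors showed no common direction, with 8 of 14 higher, 6 lower and a median of 0.085. SMG5, an adaptor of the decay machinery, was the largest at 1200 with let-7i and 895 with the empty vector (1.36-fold), followed by ETF1, a translation release factor, with 3723 and 3112 (1.21-fold). The 31 other measured genes that carry microRNAs split into 19 higher and 12 lower (median 0.098). TLN2, the host of miR-190a, differed by at least 2.06-fold (179 with let-7i and 80.2, below the floor, with the empty vector), and SREBF2, a regulator of sterol synthesis and the host of miR-33a, was 1.98-fold lower (399 and 801).

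**Figure D4:**
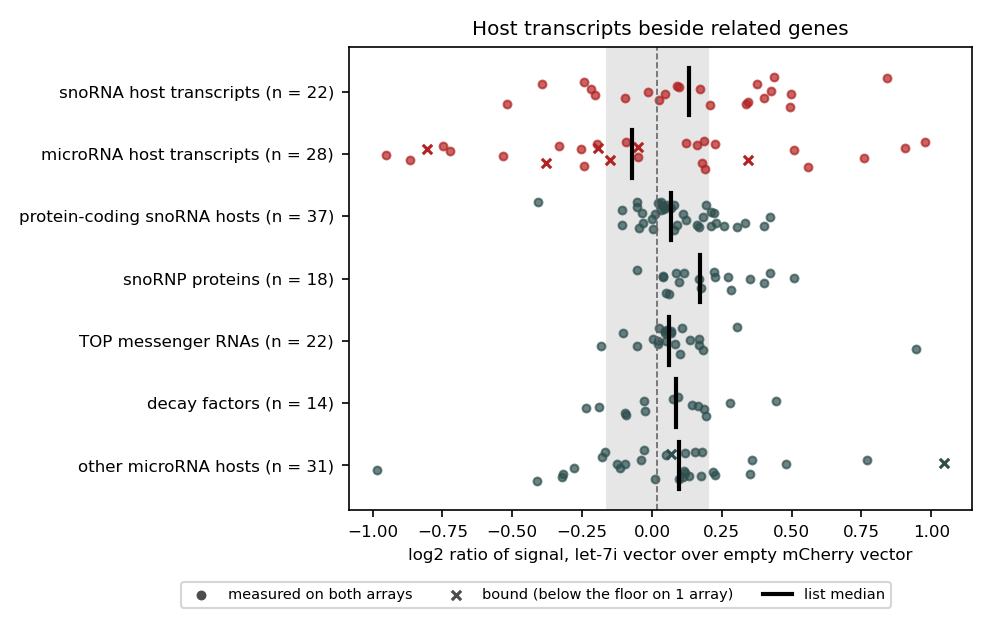
Log2 ratios (let-7i vector over empty mCherry vector) of single genes by list, with list medians as black bars. The grey band is the middle range (25th to 75th percentile) of all genes measured on both arrays and the dashed line the median of all genes above the floor. Crosses are bounds (for MIR4435-2HG, which has no direction, the centred ratio of the floors). The snoRNA hosts (median 0.13) and microRNA hosts (median -0.073) spread more widely than the protein-coding snoRNA hosts (median 0.068). Most protein-coding snoRNA hosts are far brighter than the microRNA hosts and the 9 dimmer snoRNA hosts. Probe noise falls with signal, so these spreads are not compared at like signal.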

How the data were processed

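RNA of 2 OECM1 cultures was made into biotinylated cRNA for Affymetrix arrays (per the labels' protocols). Deposited values are MAS5 signal intensities on a linear scale, per the submitters' processing notes, with 1 value per probe set and array. For MAS5, neither version nor settings nor detection calls are given in the sources read for this work. The trimmed mean (2% at each end) was 500.1 on both arrays, so differences in total RNA are removed. Mismatch subtraction by MAS5 adds noise to dim values. The number of arrays limits the precision.

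Probe sets were named by the platform annotation. Of 54675 probe sets, 41097 had 1 symbol, 1801 several and 11777 were not listed. A probe set whose other symbols were only snoRNAs, scaRNAs or microRNAs was given to the remaining gene. This left 121 member probe sets for 73 hosts, and 14 with another long gene are reported as shared. RefSeq (GRCh38.p14) held 72 of the 74 hosts. Its coordinates were used to find small RNAs inside hosts and to place printed sequences. With 1 array per group no test was possible, and differences were called by size. Every host above the floor is named with its signals. From each of 5 related lists the 2 largest ratios are named. The members and lists were chosen with earlier results of these data known.

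The floor was the 50th percentile of each array. Ratios were also computed uncentred, with a lowess fit in place of the median (fraction 0.3, 3 iterations), after quantile normalization, with the floor moved to the 25th or the 65th percentile, and with other choices: leaving out IDs ending in _s_at or _x_at, the mean over probe sets, and thresholds of 1.5-fold and 3-fold. The procedure was tested on simulated data. Changes were placed only in probe sets well above the floor, with a single noise level, so that test does not cover dim hosts. The lowess fit came from statsmodels 0.14.6, figures from Matplotlib 3.10.9, and the rest from pandas 2.3.3 and NumPy 2.4.6 under Python 3.11.15.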

Additional observations from a re-analysis of the deposited data

How the results depend on the processing

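The count of member probe sets at least 2-fold higher was 0 in the main setting, without centring, under the higher floor (65th percentile), when probe sets matching several transcripts were left out, and at 3-fold. It was 1 after lowess centring and 1 after quantile normalization (MIR155HG both times), 6 under the lower floor (25th percentile) and 7 at 1.5-fold. The count at least 2-fold lower was 0 except for 7 under the lower floor, which takes in dimmer signals, and 9 at 1.5-fold. The share of all probe sets passing 2-fold was computed only in the main setting. The counts under the lower floor therefore have no background beside them and are not read as a result about the hosts. The median log2 ratio of the snoRNA hosts stayed between 0.075 and 0.16 in all 8 alternatives. That of the microRNA hosts (-0.073) was 0.038 after lowess centring, 0.028 after quantile normalization, 0.13 over the 12 genes left under the higher floor, -0.17 with the mean over probe sets and 0.035 over genes measured on both arrays. Of the 50 hosts, 6 changed sign after lowess centring, 5 after quantile normalization and 5 with the mean over probe sets, all at main log2 ratios of at most 0.25 in size. Dim signals limit the microRNA hosts, none of which had a mean signal of 1000. No paired analysis was possible because each group has 1 array.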

Other observations

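Some probe sets below the main floor had larger ratios. They were picked for passing 2-fold under a lower floor, and the share of all probe sets passing there was not computed. The probe noise was estimated at signals from 96.6 upward, so it does not cover these dimmer ones. Under the lower floor (25th percentile), MIR9-2HG, a host of miR-9, had signals of 74.1 with let-7i and 18.0 with the empty vector, at least 3.45-fold higher. MIR34BHG, the host of miR-34b and miR-34c, which p53 induces, had 1.67 and 54.5, at least 2.77-fold lower. SNHG10 had another, dim probe set with 75.0 and 26.2, 2.96-fold higher, while its brightest probe set was 1.18-fold lower. The second probe set of MIR9-2HG had 18.4 with let-7i and 7.38 with the empty vector, below that floor on both arrays. Under the same floor MIR2052HG was 2.64-fold lower. MIR7-3HG was at least 2.40-fold lower, and a second MIR3945HG probe set at least 2.67-fold lower. MIR670HG was 2.16-fold higher and MIR4307HG at least 2.41-fold higher. The other MIR7-3HG probe set went the other way, with 32.4 with let-7i and 8.43 with the empty vector.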
